A study of Mus musculus with 7 samples.

Results

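The genes described here encode parts of the axoneme, the microtubule core of a motile cilium or flagellum, and of the intraflagellar transport trains that build it, measured in mouse oocytes with and without a mitofusin gene. They were chosen by name: protein-coding genes whose symbol begins with Dnah, Dnaic, Tekt, Cfap, Rsph, Drc or Ift followed by a number, plus Daw1. Of the 26019 gene rows of the deposited table, 16790 of them protein-coding, 65 met this rule. The set was proposed with the difference between KO and WT oocytes already known, and Daw1 was added for its fall. The KO and WT values and calls of these genes, and counts of them by p-value, are therefore a description and not evidence.

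The RNA came from oocytes enclosed in secondary follicles of C57BL/6J mice, and each library pooled 5 oocytes. The titles give 4 WT libraries and 3 KO libraries, numbered within each group. All were made by Smart-Seq2, which copies polyadenylated RNA into full-length cDNA and amplifies it, followed by Nextera XT tagmentation, which does not mark the strand, and 75-base paired sequencing. The labels disagree on the gene that was deleted, which is Mfn2 by the title and design text but Mfn1 by the genotype label and protocol. The age is 8 weeks in the protocol and P1 in the age label, and the design text gives 3 mice per group against 4 WT libraries. The sources used here do not give the deleted exons or any Cre driver. Follicles were released with collagenase, and the oocytes were separated from granulosa cells with Accutase. The labels do not tie libraries to mice, and p-values therefore cover only the spread between these samples, which may be technical.

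Motile cilia and sperm flagella carry doublet microtubules joined by nexin links and moved by outer and inner dynein arms, which radial spokes regulate. Primary cilia, which many somatic cells carry as a sensory organelle, lack dynein arms but are built by the same intraflagellar transport trains. In the female tract, motile cilia are a feature of the oviduct epithelium, and tektins and dynein arms are otherwise best known from the sperm tail.

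Transcription of many ciliary genes is controlled by RFX factors, which bind an inverted repeat called the X-box. The promoters below are shown for the genes on which the KO and WT values turn. Daw1, Tekt4, Tekt2 and Dnah5 were the called genes with the largest falls, and Ift27 was the called gene that was higher. Each runs 5′ to 3′ on the gene's strand, from 250 bases before the RefSeq start to 30 bases after it, from RefSeq's GRCm38.p6 table, and capitals mark matches to X-box-like letters. Both strands were searched for 3 forms of the repeat and for the half-site GTTGCC, so a capital run GGCAAC is the half-site on the other strand. The strict form has the arms GTTNCC and GGNAAC with 2 bases between them, the loose form has the arms GTNNCC and GGNNAC with 2 bases between them, and the uneven form has GTTNCC and GNAAC with 3 bases between them. Daw1 lies at chr1:83159505-83159784 on the plus strand, Tekt4 at chr17:25471340-25471619 on the plus strand and Tekt2 at chr4:126325659-126325938 on the minus strand. Dnah5 lies at chr15:28203516-28203795 on the plus strand and Ift27 at chr15:78174052-78174331 on the minus strand.
Daw1: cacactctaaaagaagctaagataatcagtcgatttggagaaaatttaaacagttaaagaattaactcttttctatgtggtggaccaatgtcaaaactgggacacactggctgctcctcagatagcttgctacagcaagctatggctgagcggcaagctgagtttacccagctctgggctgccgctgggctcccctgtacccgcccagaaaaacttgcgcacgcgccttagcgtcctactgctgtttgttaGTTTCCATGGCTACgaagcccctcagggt
Tekt4: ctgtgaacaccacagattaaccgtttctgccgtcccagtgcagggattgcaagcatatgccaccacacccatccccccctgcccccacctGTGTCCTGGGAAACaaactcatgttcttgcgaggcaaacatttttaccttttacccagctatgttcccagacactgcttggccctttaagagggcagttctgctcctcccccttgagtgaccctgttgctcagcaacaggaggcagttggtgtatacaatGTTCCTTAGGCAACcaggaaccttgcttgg
Tekt2: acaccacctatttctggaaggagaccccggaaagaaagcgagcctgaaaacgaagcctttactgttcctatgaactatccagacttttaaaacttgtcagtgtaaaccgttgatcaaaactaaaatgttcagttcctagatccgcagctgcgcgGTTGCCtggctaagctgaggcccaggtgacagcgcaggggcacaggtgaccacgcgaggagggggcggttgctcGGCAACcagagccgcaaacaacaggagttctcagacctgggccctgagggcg
Dnah5: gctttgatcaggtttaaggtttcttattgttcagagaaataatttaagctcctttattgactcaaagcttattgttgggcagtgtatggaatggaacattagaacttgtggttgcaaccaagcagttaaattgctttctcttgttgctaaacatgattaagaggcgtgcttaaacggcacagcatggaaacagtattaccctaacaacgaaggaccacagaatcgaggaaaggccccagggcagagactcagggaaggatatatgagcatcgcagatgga
Ift27: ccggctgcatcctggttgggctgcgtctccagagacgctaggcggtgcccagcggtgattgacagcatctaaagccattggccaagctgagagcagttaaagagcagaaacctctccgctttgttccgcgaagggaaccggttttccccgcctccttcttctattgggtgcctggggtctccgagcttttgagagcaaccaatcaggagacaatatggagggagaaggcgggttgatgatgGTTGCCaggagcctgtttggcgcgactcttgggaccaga

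In Daw1 the single match, GTTTCCATGGCTAC, lay just after the start. Tekt4 held GTGTCCTGGGAAAC upstream and GTTCCTTAGGCAAC at the start, and the last of these also contains the half-site on the minus strand. Tekt2 held the half-site once on each strand, Ift27 held it once just before the start, and these letters were not found in the Dnah5 window. A promoter window was found for 56 of the 65 genes, as 63 windows, and for 27025 mouse genes in all. The loose form stood in the windows of 8 of the 56, or 14.3%, against 2.16% of all genes. The 8 were Cfap126, Cfap206, Cfap77, Daw1, Ift22, Ift57, Rsph9 and Tekt4. The uneven form stood in Cfap45, Cfap61 and Tekt4, or 5.36%, against 0.936% of all genes. The half-site GTTGCC stood in 19 members, or 33.9%, against 14.1%. The strict form was in none of the 56 and in 0.529% of all genes. For other letters, the half-site followed by 2 bases and GG was in 8.93% of members against 2.59% of all genes, and the ETS-type CCGGAAGT was in 17.9% against 4.31%. Dnah7a, Dnah7b and Dnah7c, which share sequence, were each counted for GTTGCC and for the ETS-type letters. The members are protein-coding, while the 27025 genes were not filtered by type, so the shares are not fully alike. A match is a description of the letters and does not show that a factor binds there.

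Reads assigned to genes ranged from 6676076 to 8343915 per library, and size factors from 0.914 to 1.10. Mfn2, which encodes the outer-membrane mitochondrial fusion GTPase mitofusin 2, was at 35.3, 35.15, 14.95 and 29.2 normalised counts in WT 1 to 4 and at 7.27, 4.55 and 7.66 in KO 1 to 3. All 3 KO libraries lay below all 4 WT libraries, and the log2 fold change was -1.94 (SE 0.40; limma's adjusted p was 0.00571, and 0.000462 to 0.985 over the alternatives). Mfn1, its paralog, was not called (log2 fold change 0.20, SE 0.16, adjusted p = 0.499 by limma). Of the pair, Mfn2 was therefore the one called lower in the libraries labelled KO. The 12 oocyte markers summed to 177000 to 237500 normalised counts in WT and 204900 to 326100 in KO. Of these 12, 1 was called higher, Ddx4 at 785.5 in WT and 1904 in KO, and 0 were called lower. Nlrp5 averaged 12960 in WT and 26790 in KO, with all KO libraries above WT, and was not called. The 15 granulosa markers summed to 434 to 472 in WT and to 475, 755 and 771 in KO 1 to 3. The sum joins genes that went opposite ways: Cyp19a1 was called lower, at 179 and 78.2, and Nr0b1 was called higher, at 0.266 and 7.34. Inha averaged 30.0 in WT and 262 in KO and was not called. It was at 11.9 to 66.7 in WT and at 54.5, 395 and 338 in KO 1 to 3. Of the 15, only Cyp19a1 and Inhba averaged lower in KO. The mean log2 value of the granulosa markers was 2.36 to 3.07 in WT and 3.37, 4.25 and 4.13 in KO 1 to 3, so by that measure all KO libraries lay above WT, KO 1 the least. Of 8 macrophage and leukocyte markers, 6 were in the table, and they summed to 541 to 578 in WT and 187 to 275 in KO. Nearly all of that sum was C1qb, called lower at 533 ± 17.15 in WT and 217 ± 39.1 in KO, while C1qa, Lyz2 and Adgre1 were near 0 in both groups. Neither Cd68, which averaged 12.4 in WT and 18.4 in KO, nor Csf1r, at 8.18 and 3.28, was called. Theca and stroma markers (5 of 11 in the table) summed to 15.0 to 28.8 in WT and 10.9 to 23.6 in KO, endothelial markers (3 of 5) to 189.5 to 223 and 164 to 225, and the erythroid marker (1 of 4) to 0 to 2.13 and 0. Most of the endothelial sum was Pecam1, which averaged 164 in WT and 153.5 in KO. Tek averaged 43.4 and 35.6, and Kdr only 3.03 and 1.88. Of 10 markers of the multiciliated oviduct epithelium, 7 were in the table and summed to 174 to 440.4 in WT and 179 to 248 in KO. Sntn, Fam183b, Ccdc153 and Dynlrb2 each averaged about 1 or less in either group and were not tested. None of the 3 tested was called: Mlf1 averaged 152 in WT and 96.6 in KO, and Tppp3 58.8 and 76.2. Ccdc113 averaged 63.2 in WT and 38.7 in KO, with all KO libraries below all WT libraries.

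The 65 genes together took 0.168% to 0.185% of the reads in genes in WT and 0.148% to 0.167% in KO. Their levels differed widely, and 42 of them averaged 20 normalised counts or more while 18 averaged below 10. Levels of different genes are compared here per kb of exon, with exon lengths from GENCODE M21. Each length joins the exons of all annotated transcripts of a gene, so a gene with long alternative exons can read low per kb. The highest was Ift43, a subunit of the IFT-A complex of returning trains, at 1029 ± 95.2 normalised counts per kb (SD, n = 4) in WT, at percentile 97.4 of 16614 protein-coding genes. Ift46, an IFT-B subunit that carries outer dynein arms, was at 272 ± 25.1 per kb and Rsph3a, a radial spoke stalk gene, at 272 ± 58.2 per kb. Daw1 followed at 228 ± 35.0 per kb, at percentile 89.2, and Rsph3b at 218 ± 33.7 per kb. Adjacent genes in the order Ift46, Rsph3a, Daw1 and Rsph3b differed by less than the larger of their SDs, while Ift43 stood far above them.

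Next came Cfap97 at 169 ± 15.1 per kb and Ift22 at 164 ± 7.53 per kb, which also lay within 1 SD of each other. The dynein heavy chains, motor subunits encoded by very long transcripts, ran from 1.21 per kb for Dnah2 to 29.9 ± 3.68 per kb for Dnah7c. Dnah8 was at 15.3 per kb and Dnah5 at 5.60 ± 1.00 per kb. The median level in WT was 5.73 per kb over the heavy chains and 57.4 per kb over the intraflagellar transport genes. Cfap54, a central-apparatus gene, was the lowest of all at 0.0523 per kb.

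**Figure D1:**
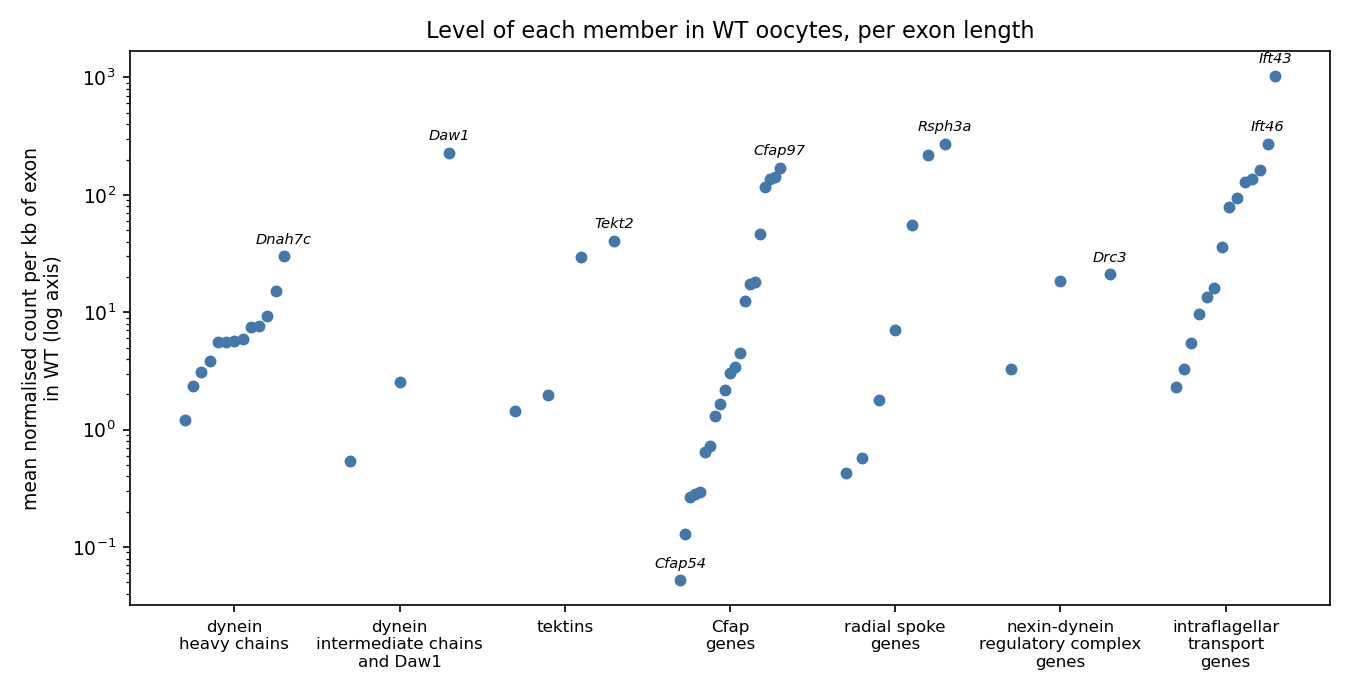
Mean normalised count per kb of exon in the 4 WT libraries on a log axis, 1 point per gene, by family. Ift43 tops the set at 1029 per kb, Daw1 stands at 228 per kb among the dynein genes, and the heavy chains lie between 1.21 and 29.9 per kb.

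Of the 65 genes, 62 reached a value of 1 in 3 or more libraries and were tested. Those that did not were Cfap100, Cfap126 and Cfap157. A gene is called here when the limma test on log2(value + 1) over all 19227 genes tested gives a Benjamini-Hochberg adjusted p under 0.05. Among the 62, 6 were called lower in KO, or 9.68%, and 1 was called higher, or 1.61%. Over all genes tested, 3.63% were called lower and 3.09% higher, 6.71% in either direction. Since the genes were chosen with this contrast in view, nothing is read from the excess. The all-gene total of 1291 calls became 728, 710, 594 and 902 when WT 1, WT 2, WT 3 or WT 4 was left out, and 1767, 604 and 821 when KO 1, KO 2 or KO 3 was.

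All 3 KO libraries lay below all 4 WT libraries for 13 of the genes tested, against 9.83% of all genes. They lay above for 4, against 9.37% of all genes. The median log2 fold change was -0.19 over the 62 genes and -0.01 over all genes tested, with 43 of the 62 below 0 and 19 above. In KO 1, the KO library with the lowest granulosa marker mean, 26 of the genes lay below all WT libraries, against 23.8% of all genes. These libraries are bulk pools, in which fewer cells of a type and less RNA per cell cannot be told apart. No change of scaling moved the all-gene median by 0.1 or more.

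**Figure D2:**
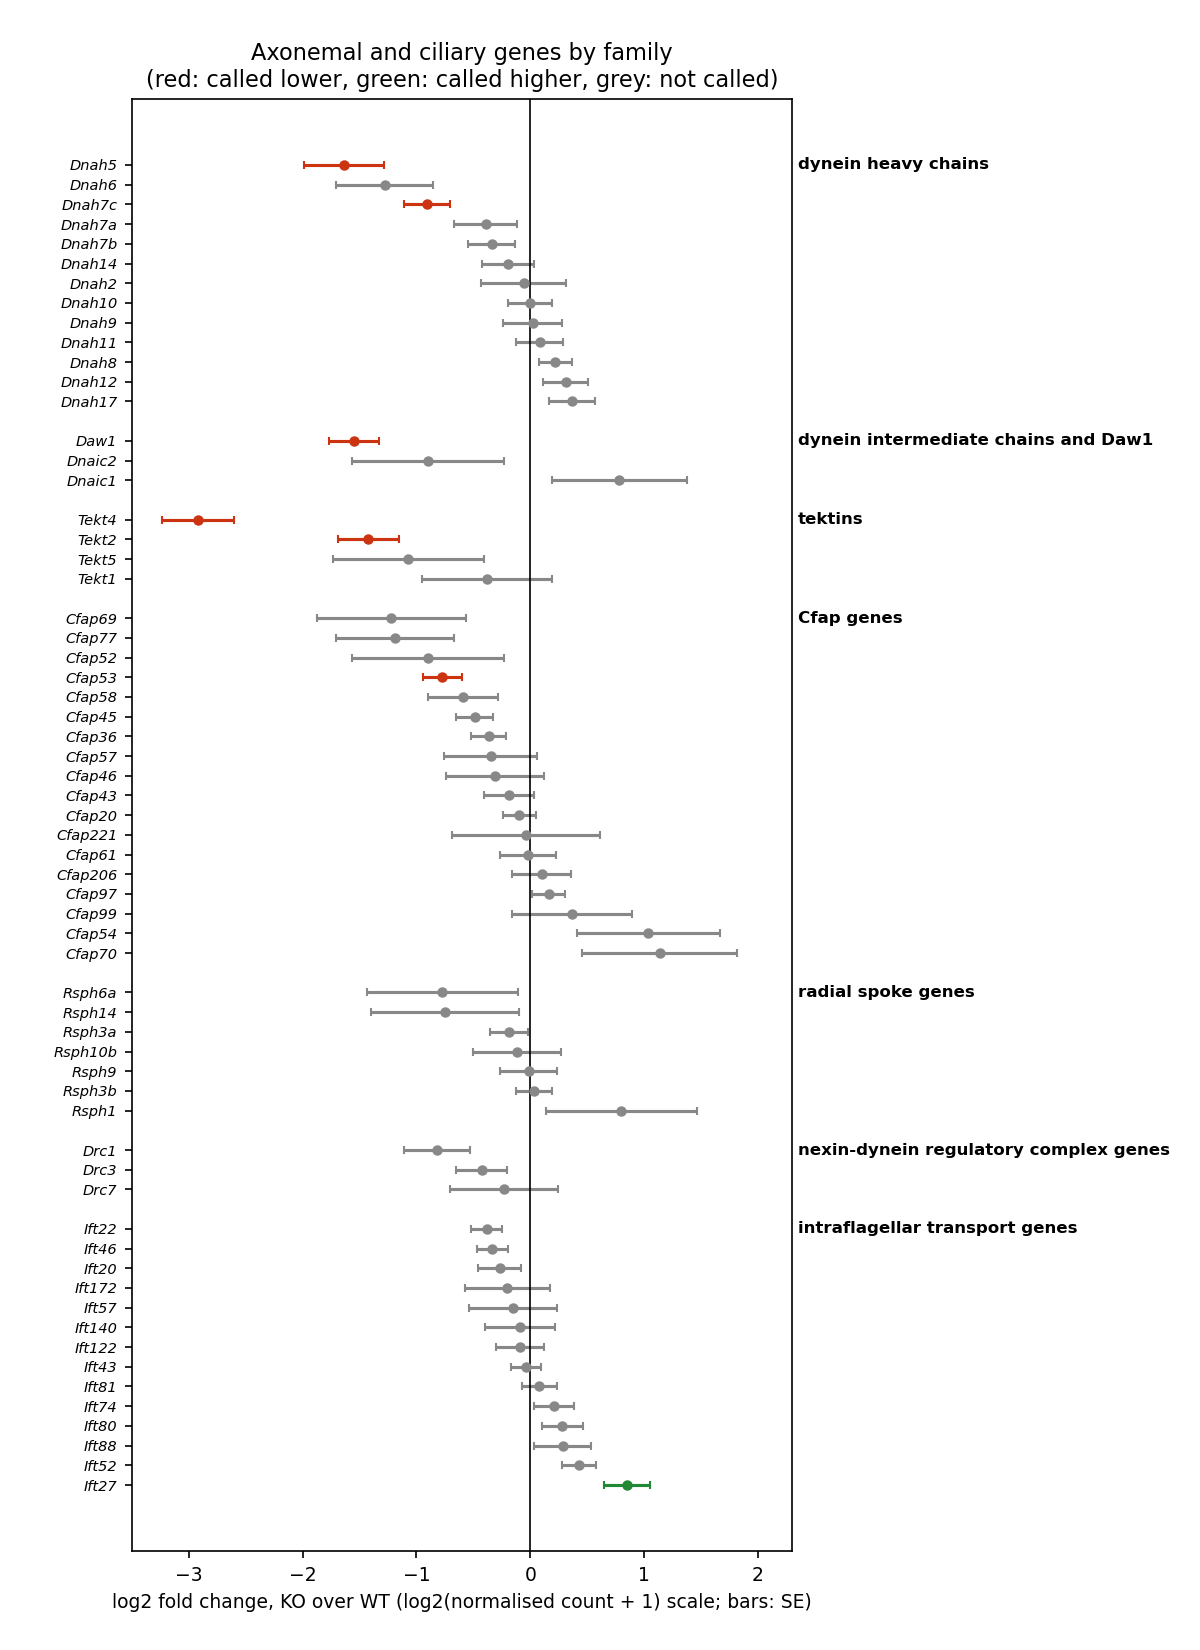
Log2 fold change of KO over WT for the 62 genes tested, by family, with bars for the SE. Red points are the 6 genes called lower, the green point is Ift27, and the grey points were not called. Tekt4 lies farthest to the left at -2.92.

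Daw1 encodes the WD-repeat adaptor known in algae as ODA16, which hands outer dynein arms to intraflagellar transport for carriage into the cilium (ENSMUSG00000053161.16, GRCm38 chr1:83159752-83210574, plus strand). It was at 489, 419, 593 and 455 normalised counts in WT 1 to 4 and at 157, 114 and 252 in KO 1 to 3. The highest KO library lay well below the lowest WT library. The means were 489 ± 74.9 (SD, n = 4) and 174 ± 70.5 (SD, n = 3), 2.81-fold lower in KO, with a log2 fold change of -1.55 (SE 0.22). These values rest on 393 to 634 reads per WT library and 125 to 230 reads per KO library, so counting error is small beside the spread between libraries. From KO 1 alone against WT the log2 fold change was -1.62, a value whose spread comes from the WT libraries only. When the mean of the granulosa markers entered the fit as a covariate, the log2 fold change was -1.76, but in that fit 0 of the 19227 genes were called (961 at an unadjusted p under 0.05). The intermediate chains Dnaic1 and Dnaic2, which anchor the outer arm, averaged below 10 normalised counts in both groups and were not called.

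The tektins are filament proteins that run along the doublet microtubules of cilia and of the sperm tail. Tekt4 (ENSMUSG00000024175.2, chr17:25471590-25476594, plus strand) was at 65.8, 59.6, 60.8 and 49.8 normalised counts in WT 1 to 4. In KO 1 to 3 it was at 8.18, 7.27 and 5.47. The KO values sat far below WT with little spread, from a mean of 59.0 ± 6.67 (SD, n = 4) to 6.97 ± 1.38 (SD, n = 3). The ratio was 8.46-fold and the log2 fold change -2.92 (SE 0.31), with 46 to 69 reads per library in WT and 5 to 9 in KO. From KO 1 alone, with 9 reads, the log2 fold change was -2.70, and with the granulosa covariate it was -2.82.

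Tekt2 (ENSMUSG00000028845.15, chr4:126322121-126325688, minus strand) was at 97.2, 91.6, 57.0 and 61.7 normalised counts in WT 1 to 4. In KO 1 to 3 it was at 30.9, 27.3 and 24.1. The WT libraries fell into a higher pair, WT 1 and 2, and a lower pair, WT 3 and 4, and all 3 KO libraries lay below both. The means were 76.9 ± 20.5 and 27.4 ± 3.41, a log2 fold change of -1.42 (SE 0.27). Its exons overlap those of Gm12945 over 20.8% of their bases, and that gene was at 0 to 1.87 in WT and at 0 in KO. Tekt1 averaged 3.20 ± 1.26 in WT and 2.31 ± 1.24 in KO, and Tekt5 averaged 2.59 ± 1.95 and 0.909 ± 1.57, so Tekt2 and Tekt4 carried nearly all tektin counts. Over the 4 tektins the sums were 168, 155.5, 124 and 119 in WT and 40.0, 40.0 and 32.8 in KO.

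Among 13 dynein heavy chains, limma called 2 lower and 0 higher, against 3.63% and 3.09% of all genes tested. By limma 3 had an unadjusted p under 0.05, against 21.8% of all genes. Both edgeR and DESeq2 likewise called 2 lower and 0 higher. Dnah5 encodes an outer-arm heavy chain whose loss causes primary ciliary dyskinesia (ENSMUSG00000022262.8, chr15:28203752-28472052, plus strand). It was at 111, 76.7, 78.5 and 84.5 normalised counts in WT 1 to 4 and at 40.0, 11.8 and 41.6 in KO 1 to 3. The groups did not overlap, KO 2 was the lowest, and the log2 fold change was -1.64 (SE 0.35). From KO 1 alone against WT it was -1.10 and was not called.

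Dnah7c encodes a single-headed inner-arm heavy chain (ENSMUSG00000101337.6, chr1:46425592-46807476, plus strand). It was at 421, 313, 377 and 398 normalised counts in WT and at 243, 132 and 247 in KO, again lowest in KO 2. The log2 fold change was -0.91 (SE 0.20), and without KO 2 the call was lost at -0.61. Dnah7a averaged 48.9 ± 10.01 in WT and 37.1 ± 8.69 in KO, and Dnah7b, which neighbours Dnah7c, averaged 118 ± 13.9 and 93.8 ± 19.4. Neither was called, at log2 fold changes of -0.39 and -0.34.

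The 3 Dnah7 copies share sequence, with 26.6% of the 75-base stretches of Dnah7a, 21.0% of those of Dnah7b and 33.2% of those of Dnah7c found in another annotated gene. Reads could therefore be split among them, and their sum is the safer quantity. It was 615, 464, 519.7 and 576 in WT 1 to 4 and 349.8, 261 and 404 in KO 1 to 3. The summed KO values all lay below the summed WT values, and the KO mean was 0.622 of the WT mean.

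Dnah6, another single-headed inner-arm heavy chain, was at 41.9, 25.6, 27.1 and 29.2 in WT and at 24.5, 4.55 and 14.2 in KO. All KO libraries lay below WT, KO 1 only just, and it was not called at a log2 fold change of -1.28 (SE 0.43). It was called without KO 1, at -1.77, and when no filter on low values was applied.

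Several heavy chains had KO values near or above those of WT. Dnah8, the paralog of Dnah5 known from sperm, averaged 411 ± 35.7 in WT and 478 ± 31.2 in KO, with a log2 fold change of 0.22 (SE 0.14). Dnah17, an outer-arm chain of the sperm tail, was at 96.3, 86.3, 89.7 and 91.0 in WT and at 102, 145 and 110.5 in KO. Its KO libraries all lay above WT, by little in KO 1 and KO 3, and it was not called at 0.37 (SE 0.20). Dnah12, of the single-headed inner arms, had a log2 fold change of 0.31 (SE 0.20) and was not called. Dnah10, a chain of the double-headed inner arm, averaged 123 ± 9.15 in WT and 124 ± 21.9 in KO, and Dnah11, of the outer arm, averaged 108 ± 17.6 and 113 ± 7.24. Dnah9, also of the outer arm, averaged 49.6 ± 11.3 and 49.7 ± 6.39. Dnah14 averaged 93.0 ± 22.8 and 79.5 ± 7.48, and Dnah2 18.2 ± 6.79 and 17.0 ± 4.57; none of these 5 was called.

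**Figure D3:**
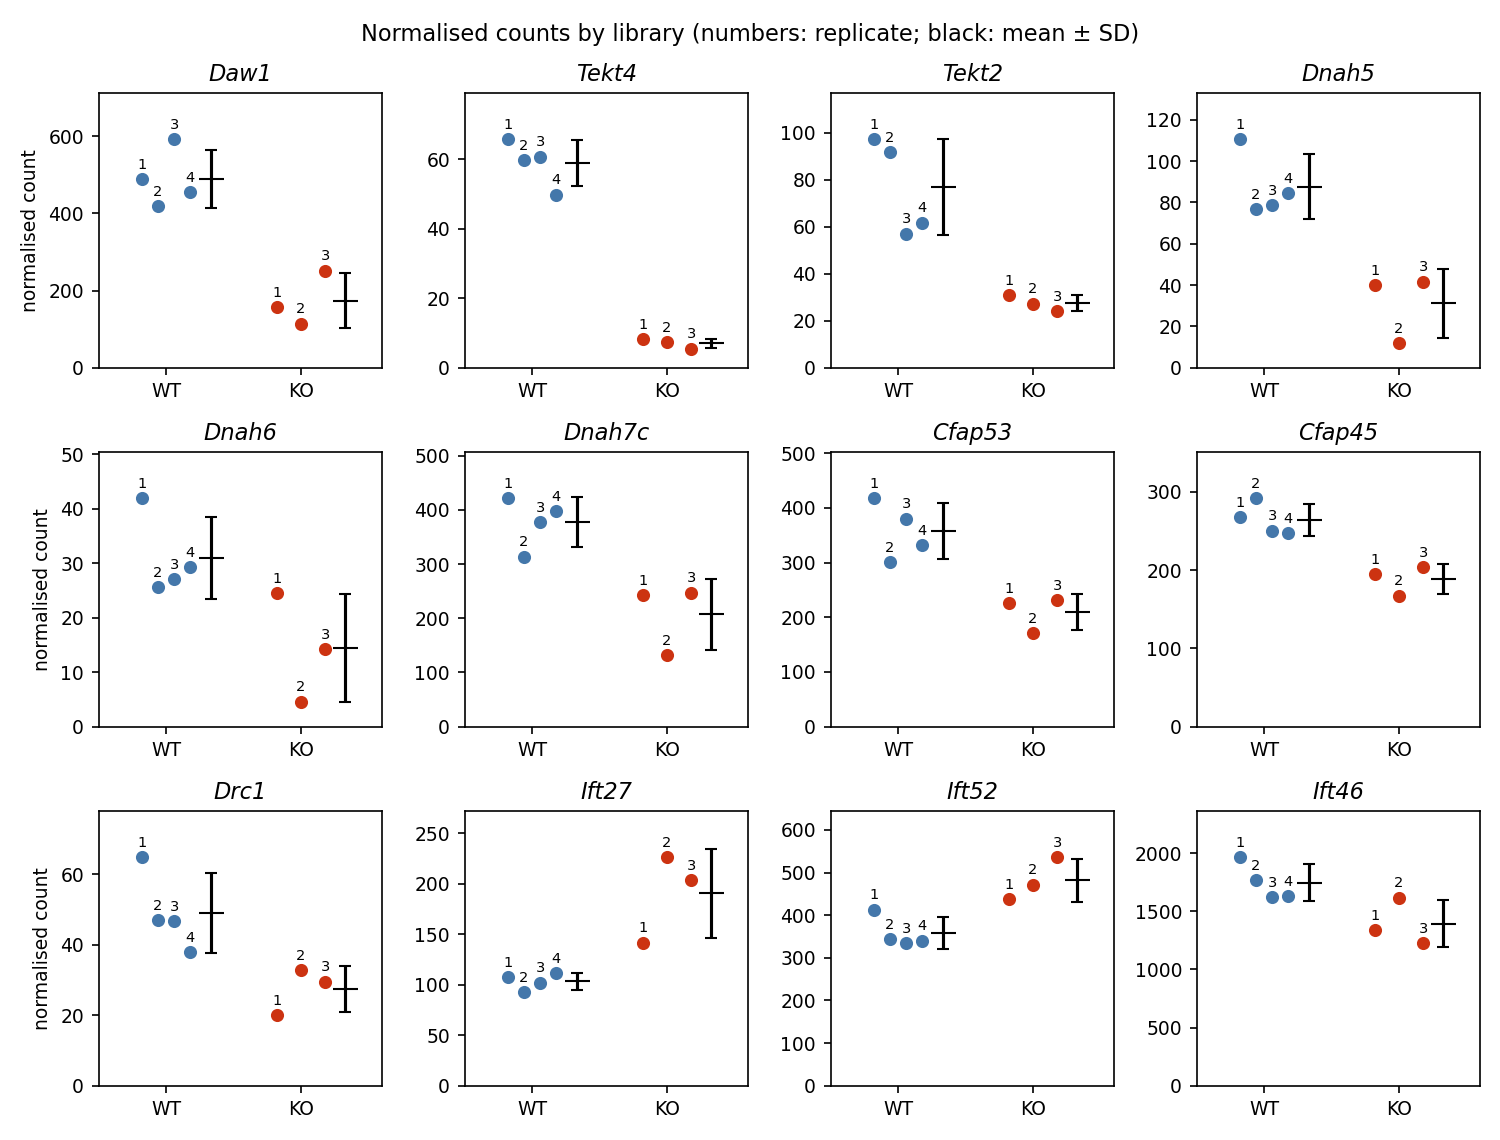
Normalised counts of 12 genes in each library (numbered points), with the mean and SD beside each group, on axes that start at 0. KO libraries lie below all WT libraries for Daw1, Tekt4, Tekt2, Dnah5, Dnah6, Dnah7c, Cfap53, Cfap45, Drc1 and Ift46, and above them for Ift27 and Ift52.

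The Cfap genes are named for association with cilia and flagella and do not form one complex. Of 21, 18 were tested, and limma called 1 lower and 0 higher, against 3.63% and 3.09% of all genes tested. By limma 4 had an unadjusted p under 0.05, against 21.8% of all genes. With edgeR 1 was called lower and with DESeq2 2, and neither called any higher. Cfap53 (ENSMUSG00000035394.11), whose product lies inside the doublet and whose loss disturbs left-right asymmetry, was at 418, 300.4, 380.4 and 331 in WT. In KO 1 to 3 it was at 225, 171 and 231. The groups did not overlap, with means of 357 ± 51.9 and 209 ± 33.1 and a log2 fold change of -0.77 (SE 0.17). Without KO 2 the call was lost, at -0.64.

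Cfap45, another protein of the doublet lumen, was at 268, 292, 250.5 and 247 in WT and at 194, 167 and 203 in KO. The groups did not overlap, and at a log2 fold change of -0.49 (SE 0.16) it was not called by limma but was called by DESeq2. Cfap36 was at 381, 404, 387 and 395 in WT and at 263, 308 and 345 in KO, a tight WT group above a spread KO group, at -0.37 (SE 0.15), not called. Cfap77 also had all KO libraries below WT, at low means of 9.01 ± 3.97 and 3.28 ± 1.32.

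Cfap97, the Cfap gene with the highest level per kb, averaged 874 ± 77.8 in WT and 988 ± 198 in KO, or 0.16 on the log2 scale. Cfap20, of the inner junction between the tubules of a doublet, averaged 523 ± 44.3 and 490.5 ± 56.4, a log2 fold change of -0.10 that turned to 0.00 without KO 3 and to 0.01 without KO 2 and KO 3. Cfap58, known from the sperm tail, averaged 44.0 ± 8.36 and 30.1 ± 11.3 and was not called at -0.59 (SE 0.31). Cfap43 averaged 124 ± 17.0 in WT and 112 ± 35.5 in KO, and Cfap61, a protein of the calmodulin-associated spoke complex, averaged 48.0 ± 6.83 and 46.9 ± 1.39. Cfap206, of the base of the second radial spoke, averaged 45.3 ± 3.73 and 49.7 ± 13.5. The other 8 tested Cfap genes not yet described, Cfap46, Cfap52, Cfap54, Cfap57, Cfap69, Cfap70, Cfap99 and Cfap221, averaged 0.766 to 12.3 in WT and 0.303 to 9.58 in KO with SEs of 0.41 to 0.68 on the log2 fold change. Cfap126, which was not tested, was at 0.953, 0, 0.935 and 0 in WT and at 0.908, 2.73 and 8.75 in KO.

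No radial spoke gene was called of 7 tested, against 6.71% of all genes in either direction. By limma 0 had an unadjusted p under 0.05, against 21.8% of all genes, and edgeR and DESeq2 called 0. Rsph3a, which encodes a stalk protein, averaged 821 ± 175 in WT and 712 ± 108 in KO, and its near copy Rsph3b averaged 679 ± 105 and 697 ± 139. They share 52.5% of the 75-base stretches of Rsph3a and 60.4% of those of Rsph3b with another annotated gene, so their split is uncertain. Their sum ranged from 1325 to 1833 in WT and from 1175.5 to 1668 in KO, overlapping groups with a ratio of means of 0.939. Rsph9, of the spoke head, averaged 88.4 ± 26.0 and 86.6 ± 23.7. Rsph10b averaged 21.9 ± 8.77 and 19.0 ± 4.15, and Rsph1, Rsph6a and Rsph14 averaged below 5 in both groups.

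The nexin-dynein regulatory complex links neighbouring doublets. None of its 3 genes was called by limma, edgeR or DESeq2, against 6.71% of all genes called by limma. An unadjusted p under 0.05 was found for 1 in each, against 21.8% of all genes by limma. Drc1, the base plate of the complex, was at 64.8, 46.9, 46.7 and 37.9 in WT and at 19.99, 32.7 and 29.5 in KO. The groups did not overlap, and the log2 fold change was -0.82 (SE 0.29). Drc3 averaged 95.4 ± 17.3 and 70.6 ± 12.1, at -0.43, and Drc7 averaged 9.76 ± 4.24 and 7.89 ± 2.79.

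Intraflagellar transport genes, which serve primary and motile cilia alike, had a median log2 fold change of -0.06. Of 14 genes, limma called 1 higher and 0 lower, against 3.09% and 3.63% of all genes tested. By limma 4 had an unadjusted p under 0.05, against 21.8% of all genes. With edgeR 0 were called lower and with DESeq2 1. Ift27, a Rab-like GTPase of the IFT-B complex (ENSMUSG00000016637.7, chr15:78159465-78174108, minus strand), was at 108, 92.7, 102 and 112 in WT. In KO 1 to 3 it was at 142, 226 and 203. All KO libraries lay above WT, KO 1 the least, with means of 103 ± 8.22 and 190.5 ± 43.8, a ratio of 1.84 and a log2 fold change of 0.85 (SE 0.20). Without KO 2 the call was lost at 0.71, and from KO 1 alone against WT the log2 fold change was 0.45. KO 2 and KO 3, the libraries with the highest granulosa marker means, were also those with the most Ift27. With the granulosa covariate its log2 fold change was 0.245. That marker mean was higher in every KO library than in any WT library, so the fit cannot cleanly separate it from the KO label. The cause of the Ift27 difference was not tested.

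Within IFT-B the log2 fold changes had both signs. Ift52, at the core of IFT-B, was at 413, 344, 334 and 340.1 in WT and at 438, 472 and 536 in KO, with all KO libraries above WT and a log2 fold change of 0.43 (SE 0.15), not called. Ift80 was at 174, 151, 176 and 171 in WT and at 183, 177 and 263 in KO, where only KO 3 stood clear of WT. Ift22, also a Rab-like GTPase of IFT-B, was at 617, 588, 553 and 602 in WT and at 448, 432 and 479 in KO. Its groups did not overlap, and it was not called by limma at -0.38 (SE 0.14) but was called by DESeq2.

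Ift46, which binds the Daw1 product in outer-arm transport, was at 1966, 1769, 1624 and 1628 in WT and at 1337, 1615.5 and 1224 in KO. KO 2 fell just short of the lowest WT library, and the log2 fold change of -0.33 (SE 0.13) was not called. Ift43 averaged 1699 ± 157 and 1662 ± 247, Ift81 averaged 460.0 ± 53.4 and 487 ± 67.9, and Ift88 averaged 74.1 ± 14.3 and 92.9 ± 34.3, all with overlapping groups. Ift20, which also works at the Golgi, averaged 209 ± 31.0 and 175 ± 38.1, and Ift74, the partner of Ift81 in tubulin carriage, averaged 249 ± 20.04 and 293 ± 65.8. Ift122 and Ift140, of IFT-A, averaged 99.6 ± 15.6 and 27.6 ± 5.42 in WT, and Ift57 and Ift172, of IFT-B, averaged 15.7 ± 4.68 and 15.4 ± 3.16; the 4 genes were at 93.3, 25.7, 14.1 and 13.3 in KO in the same order. Across IFT-A the 3 genes measured ran from -0.09 to -0.04, and across IFT-B the 11 genes ran from -0.38 to 0.85 on the log2 scale.

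Cilium genes outside the naming rule were listed by role, but with earlier results of these data known, so their p-values are not independent evidence. Of 144 listed, 136 were in the table and 127 were tested. By limma 1 was called lower, or 0.787%, and 4 higher, or 3.15%, against 3.63% and 3.09% of all genes tested. An unadjusted p under 0.05 was found for 20 of them, or 15.7%, against 21.8% of all genes. Iqcb1, the transition-zone gene also called Nphp5, was at 469, 511, 360 and 442 in WT and at 691, 936 and 971 in KO. All KO libraries lay above WT, by 0.95 on the log2 scale (SE 0.16, adjusted p = 0.00115 by limma). Iqcb1 was the only limma call among 21 transition-zone genes, against 6.71% of all genes called in either direction. Over the leave-one-out fits its adjusted p stayed at or below 0.00889, and over all alternatives it ran from 1.56e-06 to 0.985.

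Among the trains' motors and other subunits, 3 of 18 tested were called higher and 0 lower by limma, against 3.09% and 3.63% of all genes tested. The other 15 were not called. By limma 5 of the 18 had an unadjusted p under 0.05, against 21.8% of all genes. With edgeR 3 were called higher and with DESeq2 2, with 0 lower in each. Kifap3, the accessory subunit of the outbound motor kinesin-2, averaged 23.3 ± 2.51 in WT and 52.2 ± 6.75 in KO, a rise of 1.13 on the log2 scale (SE 0.28, adjusted p = 0.0196 by limma). Kif3a, a motor subunit of the same kinesin, averaged 524 ± 62.9 and 735 ± 56.6 (0.49, SE 0.14, adjusted p = 0.0416). Ttc30b, which encodes the IFT70 subunit of IFT-B, averaged 16.0 ± 3.27 and 35.6 ± 6.85 (1.11, SE 0.33, adjusted p = 0.0454). In all 3 genes every KO library lay above every WT library. The calls depended on single libraries: Kifap3 was lost without KO 2 or KO 3 (adjusted p up to 0.0808), Kif3a without any one library except WT 2 or KO 1 (up to 0.135), and Ttc30b without any one library except KO 1 (up to 0.172).

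Of the BBSome, the coat complex that carries membrane proteins in cilia and whose export depends on Ift27, 13 genes were tested. By limma 1 was called lower and 0 higher, against 3.63% and 3.09% of all genes tested. An unadjusted p under 0.05 by limma was found for 4, against 21.8% of all genes. Bbs7, a core subunit, was at 160.2, 109, 111 and 113 in WT and at 67.2, 71.8 and 77.7 in KO. It was the only BBSome gene called by limma, lower in all 3 KO libraries, and edgeR and DESeq2 also called it lower (log2 fold change -0.74, SE 0.21, adjusted p = 0.0365). The call was lost when any one library except KO 3 was left out (adjusted p up to 0.133). Mkks, a chaperonin-like BBSome assembly factor, went the other way, from 188 ± 11.1 to 283 ± 59.9 with all KO libraries above WT. It was not called by limma (log2 fold change 0.57, SE 0.17, adjusted p = 0.053) but was called higher by edgeR and by DESeq2.

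The remaining lists held no limma call, against 6.71% of all genes called in either direction. By limma 21.8% of all genes tested had an unadjusted p under 0.05. Among 20 dynein light chain, docking and assembly genes, 2 had an unadjusted p under 0.05, and edgeR and DESeq2 also called 0; the smallest p belonged to Dnal4 (adjusted p = 0.1315) and Tctex1d2 (0.214). Among 23 central pair, spoke, nexin and ruler genes, 3 had an unadjusted p under 0.05, edgeR called 0 and DESeq2 called 1 higher; the smallest p belonged to Efhc2 (adjusted p = 0.0667) and Iqcg (0.0852). Leaving out KO 1 brought Dnal4 to an adjusted p of 0.0217 and Efhc2 to 0.0301, and leaving out WT 3 brought Iqcg to 0.0478. Among 22 centriole and basal body genes, 4 had an unadjusted p under 0.05 and edgeR and DESeq2 called 0; Cep164 (adjusted p = 0.0693) and Sclt1 (0.103) came closest, and Cep164 reached 0.0122 without KO 1. Among 10 transcription factors of ciliogenesis, 0 had an unadjusted p under 0.05 and edgeR and DESeq2 called 0, with the smallest adjusted p at Rfx4 (0.497) and E2f5 (0.525). Foxj1, the master factor of motile cilia, was among the 10 oviduct markers listed but not among the 7 found in the table. Rfx2, which binds the X-box in spermatids, averaged 102 in WT and 103 in KO, with overlapping groups.

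**Figure D4:**
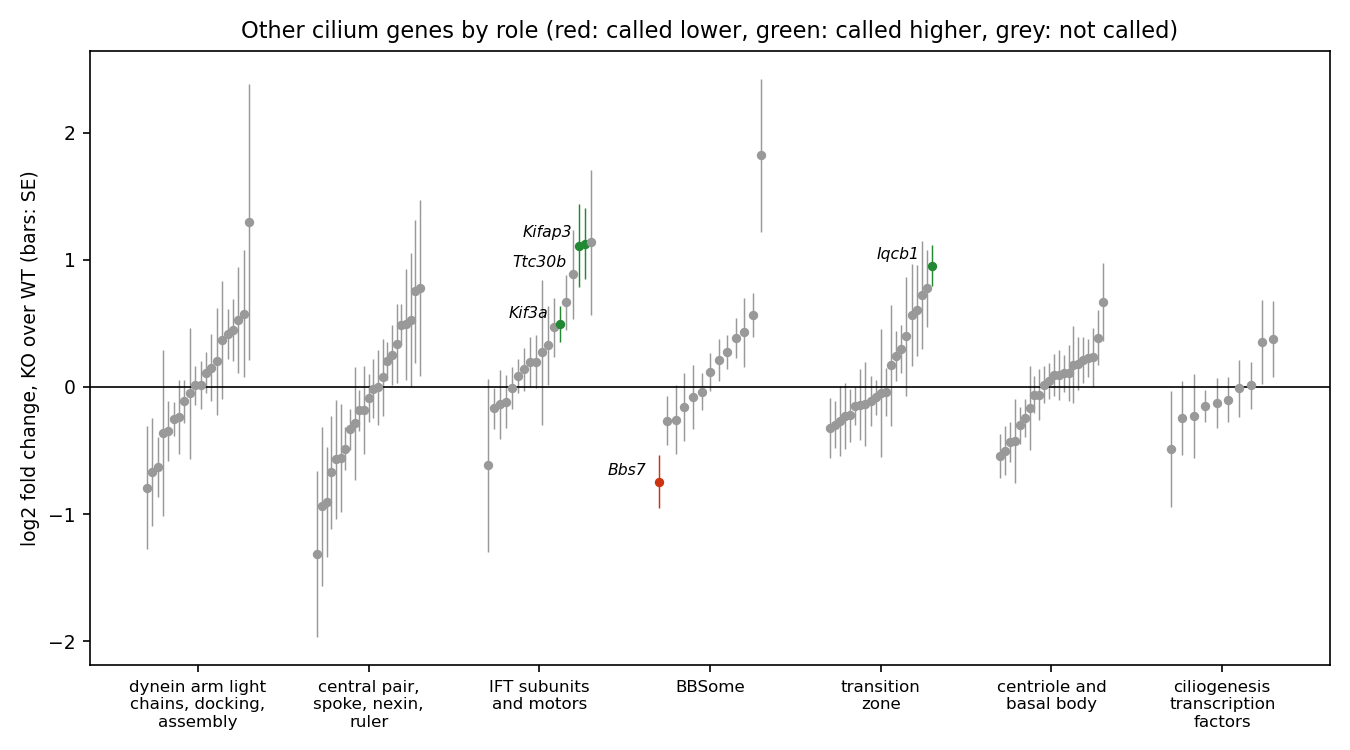
Log2 fold change of KO over WT for the 127 tested cilium genes outside the naming rule, by role, with bars for the SE. Red marks Bbs7, green marks Iqcb1, Kifap3, Kif3a and Ttc30b, and grey points were not called.

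For 16 of the 65 genes, exons overlap those of another counted gene, and without strand marks reads there cannot be told apart. For the called genes other than Tekt2 and Dnah7c, no such overlap or shared stretch above 20% was found.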

How the data were processed

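RNA was measured in 4 WT and 3 KO libraries of 5 mouse oocytes each. The authors used STAR, cutadapt, FastQC, DESeq and DESeq2 with GRCm38 (mm10), per the submitters' processing notes. The sources used here do not name the read counter. The deposited signal values are reads per gene that the authors scaled by 1 size factor for each library, as the steps between the values show. Whole reads were recovered from them, with 100% of values up to 1000 reads and 99.9543% to 99.9949% of all values within 0.05 of a whole number.

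Values were tested as log2(value + 1) with limma 3.58.1 (trend and robust) in R 4.3.3 on all 19227 genes at 1 or more in at least 3 libraries, with Benjamini-Hochberg adjustment and a threshold of 0.05. Fold changes on this scale understate low genes. On recovered reads edgeR 4.0.16 called 1240 genes and DESeq2 1.42.0 called 1442, against 1291 for limma. On simulated counts for 19227 genes, 200 were changed, all drawn from genes averaging at least 20 reads. The limma test called 54% of those changed by log2 1 and 98% of those changed by log2 2, with 10 unchanged genes among 162 calls. These rates do not cover lower genes, such as the 18 members averaging below 10. Other pseudocounts and filters, quantile normalisation, a replicate block, a granulosa marker covariate and left-out libraries were also tried.

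The members and all gene lists were chosen with earlier results of these data known. Named genes were Daw1, called members, members with non-overlapping groups averaging at least 20 in the higher group, the 12 highest members, the 6 largest changes among other members averaging at least 20, called genes of each list outside the rule (or the 2 with the smallest p), and Mfn1 and Mfn2. Others were named afterwards, to account for each family or because their values bear on a named gene. Exon lengths and overlaps came from GENCODE M21, which matched 24762 of 26019 rows by name and position and all 65 members. Gene coordinates are those of the deposited table, with the end taken 1 base lower, as in GENCODE.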

Additional observations from a re-analysis of the deposited data

Results flagged for a closer look

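Ift52 in WT had 1 library, WT 1 at 413 normalised counts, far from the other 3 at 334 to 344. The gap was 0.869 of the group's range, above the critical value of 0.829 for 4 samples. It was the only one of the 29 named members flagged in this way, and chance flags about 1 group in 20.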

How the results depend on the processing

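The count of 6 members called lower held at 6 to 8 under both other pseudocounts, both other filters, quantile normalisation, edgeR, DESeq2 and the replicate block, and ran from 4 to 7 with 1 library left out. It fell to 2 (Daw1 and Tekt4) without KO 2 and KO 3, a fit with 1 KO library that is assumed to vary like the WT libraries, and to 0 with the granulosa covariate, a fit in which no gene of the table was called. The 1 member called higher became 0 in both of those fits and ran from 0 to 1 with 1 library left out. The median of the members ran from -0.26 to -0.11 over all settings. Outside the rule, the 1 gene called lower became 3 with no filter, 0 with the covariate and 0 without KO 2 and KO 3, and ran from 0 to 2 with 1 library left out. The 4 called higher became 0 with the covariate and 0 without KO 2 and KO 3, and ran from 1 to 6 with 1 library left out. The cause was not tested. Low read counts limit the tektins, Drc1 and Dnah6.

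Titles number the libraries within each group, but the numbers do not appear to pair WT with KO libraries. Each library's deviations from its own group's mean were correlated between WT and KO libraries over 11602 genes. In these deviations same-numbered libraries correlated at -0.24, 0.12 and 0.03, and not every library correlated best with its own number. Correlations among so few libraries cannot exclude a pairing. With the replicate number as a block, 6 members were called lower and 1 higher, 0 genes outside the rule lower and 1 higher, and 1022 genes in all; the uncalled Ift43 turned to 0.0125 and Rsph3b to -0.0201.

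The log2 fold changes that turned sign were all uncalled. With the covariate they were Cfap58 at 0.365, Dnah17 at -0.00951, Dnal4 at 0.357, E2f5 at 0.0356, Ift81 at -0.205 and Rsph3b at -0.624. Without KO 2 and KO 3 they were Cfap20 at 0.0139, E2f5 at 0.0256, Ift81 at -0.109, Ift88 at -0.0604 and Rsph3b at -0.25. With 1 library left out, Cfap20 ran from -0.158 to 0.00321, Ift43 from -0.128 to 0.0858, Ift81 from -0.0242 to 0.174 and Rsph3b from -0.117 to 0.17.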
